A study of Mus musculus with 2 samples.

Results

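*Cdk8* was followed by symbol through a single-cell RNA-seq data set of the embryonic mouse eye, with 6 genes grouped as ribosomal-RNA-linked count genes. These 6 are *Gm42418*, *AY036118*, *Lars2*, *Cmss1*, *Gphn* and *Gm19951*. Among annotated transcripts, ribosomal RNA sequence was found for *Gm42418* and *AY036118* only, and a link of the others to it was not tested. The set holds 7 of the 32285 genes in the count tables. The 7 genes were chosen by their measured UMIs. *Cdk8* counts were higher in 1 of the 2 libraries, and the counts of the 7 genes rose and fell together from cell to cell. Both of these patterns are therefore given as descriptions. The study compared mice in which the last exon of *Myrf*, the gene of a transcription factor of the retinal pigment epithelium (RPE), had been replaced by its human counterpart. In *Myrf* humWT/humWT embryos both alleles carried the normal human exon, and in *Myrf* humdG/humdG embryos both carried that exon with a C-terminal frameshift variant found in patients with small eyes. Both groups therefore had the human exon, and the frameshift was the designed difference. The embryos pooled and the library differed along with it, and their parts cannot be told apart. Cells came from E17.5 eye cups, and by its label each genotype was 1 library of 3 pooled eye cups. The study's methods speak of both eyes of the pooled mice. The labels' protocol says that the cornea was removed and names floxed *Myrf* mice, while the methods say that the cornea was kept, and surface epithelium-like cells, with the corneal keratin *Krt12* among their leading genes, were found in both libraries. With 1 library per genotype there were no replicates and no test was made, and the intervals given are at 95% and hold counting error alone.

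CDK8 is the kinase of the Mediator complex, which carries signals from transcription factors to RNA polymerase II, and it works there with cyclin C, MED12 and MED13. Ribosomal RNA is the most abundant RNA of a cell, is made by RNA polymerase I and normally carries no poly(A) tail, so a 3′ kit that primes on poly(A) counts little of it. *Gm42418* and *AY036118* are non-coding genes annotated inside a copy of the ribosomal RNA repeat. *Lars2* encodes the mitochondrial leucyl-tRNA synthetase, *Cmss1* a homolog of a yeast protein of the small ribosomal subunit, and *Gphn* gephyrin, which anchors receptors at inhibitory synapses and makes the molybdenum cofactor. *Gm19951* is a non-coding RNA with no function known here.

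In the mouse build GRCm38 (GENCODE M21), *Gm42418* is a single exon of 1831 bases on the plus strand (chr17:39846958-39848788). *AY036118* is a single exon of 923 bases on the minus strand of the same place (chr17:39847113-39848035). Every base of *AY036118* was the reverse complement of *Gm42418*, and it covered 50.4% of it. The first 1244 bases of *Gm42418* (67.9%) were the exact reverse complement of an annotated ribosomal RNA transcript, of the gene CT010467.1, which is 1849 bases long, lies on the minus strand and is not counted in the tables. That strand is the one given by the annotation. Which strand the mature ribosomal RNA has was not tested, so neither *Gm42418* nor *AY036118* is called antisense to it here. RefSeq has a pseudogene of ribosomal RNA there, Rn18s-rs5 (chr17:39846354-39848202), and lists *Gm42418* as a synonym of it. Bases 1146 to 1831 of *Gm42418* also matched, in reverse complement, another transcript of CT010467.1, annotated as a pseudogene, at 98.4% over 686 aligned bases. The first of the 3 sequences shown holds the end of the match to the ribosomal RNA transcript. The others show the 2 genes as opposite strands of the same bases. In the first, from 120 bases of *Gm42418* (chr17:39848142-39848261, plus strand), capitals mark the last 60 bases that match the ribosomal RNA transcript and lower case the bases beyond it. The others are the first 60 bases of *AY036118* (chr17:39847976-39848035, minus strand) and the plus strand of *Gm42418* at that position, its reverse complement.
Gm42418: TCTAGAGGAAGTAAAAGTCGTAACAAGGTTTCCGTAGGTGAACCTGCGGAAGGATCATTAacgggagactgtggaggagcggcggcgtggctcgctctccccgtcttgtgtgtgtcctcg
AY036118: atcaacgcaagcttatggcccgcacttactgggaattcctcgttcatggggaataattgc
Gm42418 at the same place: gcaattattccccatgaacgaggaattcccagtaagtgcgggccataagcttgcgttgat

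A read from this place can be given to *AY036118* or *Gm42418* only by its strand, so the counts of the 2 genes are uncertain to that extent. The other 5 genes lie on 4 other chromosomes. *Cdk8* (chr5:146231230-146302874, plus strand) spans 71645 bases, of which its longest annotated transcript fills 5.44%, and a processed pseudogene, Gm15739, lies within it on the same strand. *Lars2* is at chr9:123366927-123462666 (plus strand), *Cmss1* at chr16:57302000-57606864 (minus strand, across *Filip1l* on the other strand), *Gphn* at chr12:78226379-78684772 (plus strand) and *Gm19951* at chr12:99643093-99647221 (plus strand). Among annotated transcripts, 1 of the 21 pairs of these genes shared a stretch of sequence, and that pair was *Gm42418* with *AY036118*. Of *Cdk8*, *Lars2*, *Cmss1*, *Gphn* and *Gm19951*, 0 of 5 had a transcript match to an annotated ribosomal RNA. Introns were not searched, and whether reads were counted in introns is not given in the sources used here.

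After filtering, 16166 cells with 119953369 UMIs (unique molecular identifiers, each a counted RNA molecule) were kept in the humWT library and 18173 cells with 107802949 UMIs in the humdG library. The median cell had 3785 UMIs in humWT and 2625 in humdG, while outside the largest cluster, which held 21.8% of humWT and 42.7% of humdG cells, the medians were 4762 and 6676 UMIs. A total of 102 barcodes occurred in both libraries. Before filtering, the libraries held 17421 (humWT) and 19565 (humdG) barcodes, with medians of 1418 and 1176 genes. The study gives fewer cells and a higher median of genes per cell for both genotypes, so the cells used here are not its set. Cells fell into 24 clusters, of which 18 were named from marker genes. The RPE-like clusters held 560 humWT and 401 humdG cells and were raised for *Dct*, *Pmel*, *Tyr*, *Tyrp1*, *Rlbp1*, *Slc45a2* and *Mitf*. *Myrf* itself had 2156 UMIs in humWT and 855 in humdG, of which 1227 and 488 were in RPE-like cells (282 and 198 CPM). The last exon was replaced in both groups, and the place of the *Myrf* reads is not given in the tables, so these counts were not taken as a check of the genotype.

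In summed counts over all cells, *Cdk8* stood at 2881 CPM (UMIs of the gene per 1000000 UMIs) in humWT and 8023 CPM in humdG, which placed it 28th and 5th among all genes by UMIs. *AY036118* was the only other member that was higher in humdG, at 5536 and 8196 CPM. The other 5 were lower in humdG. *Gm42418*, the most counted gene in both libraries, took 98837 CPM in humWT and 79954 CPM in humdG. *Cmss1* was at 10861 and 9497 CPM, *Gphn* at 7432 and 6424 CPM, *Lars2* at 3899 and 3251 CPM, and *Gm19951* at 674 and 512 CPM. The 7 genes together took 13.01% of all UMIs in humWT and 11.6% in humdG, so a rise in *Cdk8* went with a fall in the sum.

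On the log2 scale the humdG to humWT ratio was 1.48 for *Cdk8* (1.47 to 1.48) and 0.57 for *AY036118* (0.56 to 0.57). It was -0.31 for *Gm42418* (-0.31 to -0.30), -0.26 for *Lars2* (-0.27 to -0.26), -0.19 for *Cmss1* (-0.20 to -0.19), -0.21 for *Gphn* (-0.21 to -0.21) and -0.40 for *Gm19951* (-0.41 to -0.38). Of the 21026 genes with at least 20 UMIs, 4.53% were at least 2 times higher in humdG and 6.35% at most 0.5 times, and the median log2 ratio was 0.05. *Cdk8* was past the 2-fold line and the 6 others were not. By size of the ratio *Cdk8* was in place 270 of 21026. Among the 109 genes with at least 1000 CPM in both libraries *Cdk8* had the highest ratio and *AY036118* was in place 4, and none of the 103 that were not members reached 2-fold. The highest of those was *Ckb*, a creatine kinase, at 0.85. These ratios are the values for which *Cdk8* was chosen.

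Cells varied widely around these sums. In humWT the share of a cell's UMIs that came from *Cdk8* had a median of 0.523% and ran from 0.0451% at the 5th percentile to 1.19% at the 95th. In humdG it had a median of 1.29% and ran from 0.251% to 2.48%. The 2 distributions overlapped, since the 95th percentile of humWT lay close to the humdG median. *Gm42418* moved the other way, with a median share of 20.7% in humWT (2.21% to 34.6%) and 12.8% in humdG (4.06% to 21.3%). *AY036118* had median shares of 0.923% and 1.30%, *Cmss1* of 1.93% and 1.38%, *Gphn* of 1.47% and 1.10%, *Lars2* of 0.726% and 0.5004%, and *Gm19951* of 0.105% and 0.0628%. Medians per cell were higher than the shares of the summed UMIs for all 7 genes.

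**Figure D1:**
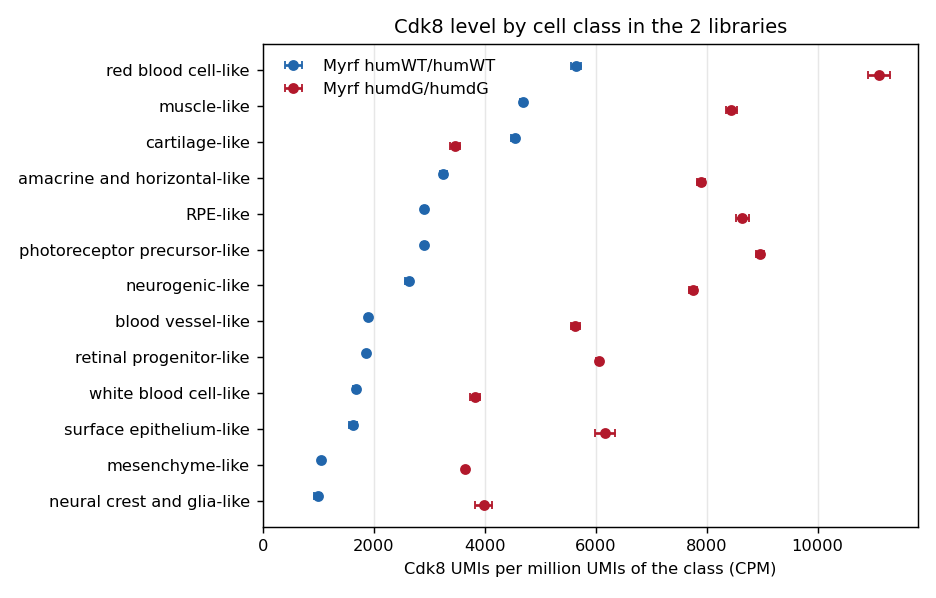
*Cdk8* level (CPM, horizontal axis) in 13 named cell classes, humWT in blue and humdG in red, each point 1 library with its 95% counting interval. In these summed counts the humdG point lies to the right in 12 of the 13 classes, and cartilage-like cells are the exception, at 4539.9 CPM in humWT and 3463 CPM in humdG.

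*Cdk8* was found in every class and was higher in humdG in 12 of 13 in summed counts. With every cell thinned to 1000 UMIs, its median per cell was higher in humdG in 13 of 13 classes, cartilage-like cells included. In humWT the level ran from 993 CPM in neural crest and glia-like cells to 5647 CPM in red blood cell-like cells, a range of 5.69-fold. Muscle-like cells came next at 4688 CPM, then cartilage-like cells at 4539.9 CPM and amacrine and horizontal-like cells at 3256 CPM. RPE-like cells (2918 CPM) and photoreceptor precursor-like cells (2914 CPM) could not be told apart within counting error. Neurogenic-like cells followed at 2629.7 CPM. Blood vessel-like cells (1896 CPM) and retinal progenitor-like cells (1869 CPM) overlapped, as did white blood cell-like (1676 CPM) and surface epithelium-like cells (1627 CPM), and mesenchyme-like cells (1062 CPM) overlapped the lowest class.

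In humdG the *Cdk8* level ran from 3463 CPM in cartilage-like cells to 11103 CPM in red blood cell-like cells, a range of 3.21-fold. Photoreceptor precursor-like cells came next at 8961 CPM. RPE-like cells (8639.6 CPM) and muscle-like cells (8445 CPM) overlapped within counting error. Amacrine and horizontal-like cells were at 7899 CPM and neurogenic-like cells at 7751 CPM. Surface epithelium-like (6168 CPM) and retinal progenitor-like cells (6057 CPM) overlapped, blood vessel-like cells were at 5634 CPM, and neural crest and glia-like (3981 CPM) overlapped white blood cell-like cells (3828 CPM), with mesenchyme-like cells next at 3650.3 CPM. Red blood cell-like cells were thus first in both libraries, while photoreceptor precursor-like cells were in place 6 in humWT and place 2 in humdG.

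In RPE-like cells, where MYRF is known to act, *Cdk8* had 12678 UMIs in humWT and 21326 in humdG, a log2 ratio of 1.57 (1.534 to 1.598). *AY036118* stood at 5593 and 8824 CPM, a ratio of 0.66 (0.63 to 0.68). *Gm42418* was at 101432 and 91580.0 CPM (-0.15, interval -0.15 to -0.14) and *Cmss1* at 10919 and 10972 CPM (0.01, interval -0.01 to 0.03). *Gphn* was at 7509 and 6998 CPM, *Lars2* at 4102 and 3849.8 CPM, and *Gm19951* at 679 and 546 CPM. Together the 7 genes took 13.3% of the RPE-like UMIs in humWT and 13.1% in humdG. Summed over these cells the totals were thus nearly equal, while *Cdk8* and *AY036118* took more of them in humdG. These sums pool cells of all depths, and *Gm42418*, the largest part, was lower in humdG under 8000 UMIs per cell and higher in deeper cells. In RPE-like cells 2.52% of 12635 genes were at least 2 times higher in humdG and 5.88% at most 0.5 times, and *Cdk8* was in place 107 by ratio. RPE-like cells were at the median of the 13 classes for *Cdk8* (1.57).

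**Figure D2:**
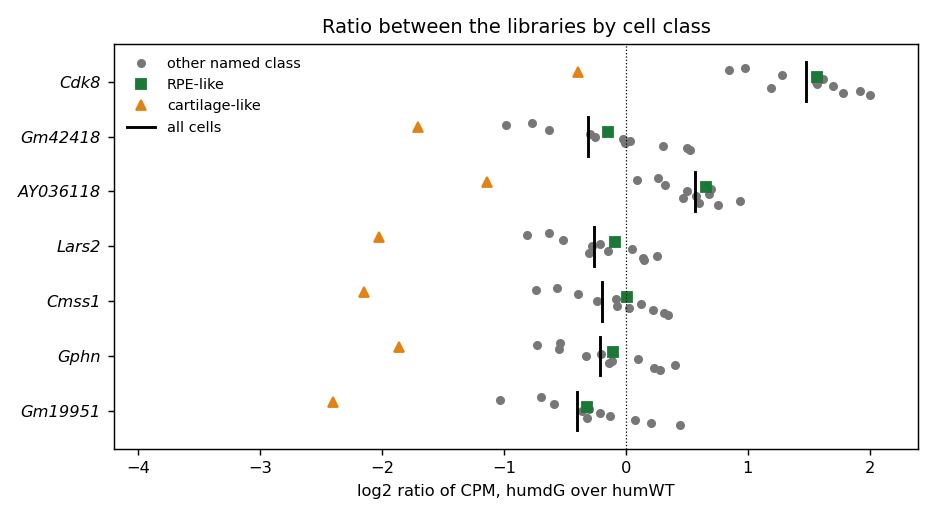
Log2 ratio of CPM, humdG over humWT (horizontal axis), for each gene in 13 named classes, with RPE-like cells as a green square, cartilage-like cells as an orange triangle, other classes as grey points and all cells as a black bar. *Cdk8* lies at 0.85 or above in every class but cartilage-like cells (-0.39), and *AY036118* lies above 0 in the same 12 classes.

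*Cdk8* and *AY036118* were higher in humdG in most classes, and the 5 other members were lower in most. *Cdk8* was at least 2 times higher in humdG in 10 of 13 classes, against a share of all genes tested that ran from 1.6% in mesenchyme-like to 15.8% in cartilage-like cells. Its log2 ratio was 2.00 in neural crest and glia-like cells, where 2.87% of genes were at least 2 times higher, and 1.92 in surface epithelium-like cells, where 2.08% were. It was 1.78 in mesenchyme-like cells (1.6%), 1.70 in retinal progenitor-like cells (1.91%) and 1.62 in photoreceptor precursor-like cells (2%). The middle of the range held blood vessel-like cells at 1.57 (2.2%), RPE-like cells at 1.57 (2.52%) and neurogenic-like cells at 1.56 (1.97%). Amacrine and horizontal-like cells were at 1.28 (2.06%) and white blood cell-like cells at 1.19 (4.09%). Below 2-fold were red blood cell-like cells at 0.98 (5.45%), muscle-like cells at 0.85 (1.98%) and cartilage-like cells at -0.39 (15.8%). The percentage in brackets is in each case the share of genes at least 2 times higher in humdG in that class. *AY036118* was higher in humdG in 12 classes, with a median of 0.58 and a highest value of 0.94 in surface epithelium-like cells. *Gm42418* was higher in 4 classes and lower in 8, with a median of -0.15, and the interval of the remaining class held 0. *Lars2* and *Gphn* were each higher in 4 classes and lower in 9, *Cmss1* was higher in 4 and lower in 7 with 2 intervals that held 0, and *Gm19951* was higher in 2 and lower in 10.

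In summed counts of cartilage-like cells all 7 members were lower in humdG. *Gm19951* was at -2.40, *Cmss1* at -2.15, *Lars2* at -2.03, *Gphn* at -1.86, *Gm42418* at -1.71 and *AY036118* at -1.14. The class held 1258 humWT cells and 139 humdG cells with medians of 2754 and 2921 UMIs but means of 3489 and 12767 UMIs, and the median log2 ratio over all its genes was 0.45. The members took 25.5% of cartilage-like UMIs in humWT and 7.83% in humdG. At 1000 UMIs per cell (1253 and 138 cells) the median was 5 *Cdk8* UMIs in humWT and 12 in humdG, and 9 and 14 for *AY036118*, while *Gm42418* was at 243 and 185 and *Cmss1* at 27 and 17. The fall of *Cdk8* and *AY036118* was thus seen in the sums and not in the thinned medians. Relative to *Gm42418*, *Cdk8* was higher in humdG in this class too, at 5.89 against 2.37 *Cdk8* UMIs per 100 *Gm42418* UMIs.

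**Figure D3:**
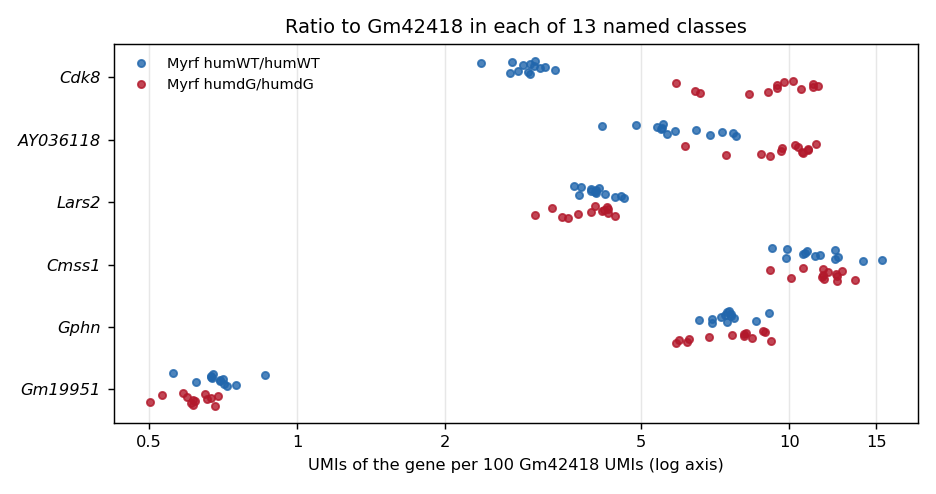
UMIs of each gene per 100 *Gm42418* UMIs (horizontal axis, log scale), each point a named class, humWT in blue and humdG in red. For *Cdk8* the 13 humWT points (2.37 to 3.34) and the 13 humdG points (5.89 to 11.4) do not overlap, and for the 5 other genes they do.

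Set against *Gm42418*, each of the 6 other members varied less from class to class than in CPM, in both libraries. This narrowing follows in part from the choice of genes that rise and fall together. In humWT *Cdk8* ran from 2.37 to 3.34 UMIs per 100 *Gm42418* UMIs over the 13 classes, a range of 1.41-fold, while its CPM ranged 5.69-fold over the same classes. *Lars2* ranged 1.26-fold against *Gm42418*, *Gphn* 1.39-fold, *Gm19951* 1.54-fold, *Cmss1* 1.67-fold and *AY036118* 1.88-fold. In humdG *Cdk8* ran from 5.89 to 11.4 UMIs per 100 *Gm42418* UMIs, a range of 1.94-fold. Each class is 1 library per genotype, and *Cdk8* was chosen for its higher counts in humdG. *Gm42418* was itself lower in humdG in 8 of the 13 classes, which widens the difference there. How many of all genes differ as much against *Gm42418* was not tested. Over all cells the proportion was 2.91 in humWT and 10.0 in humdG for *Cdk8*, and 5.60 and 10.3 for *AY036118*. For *Lars2* it was 3.94 and 4.07, for *Cmss1* 10.99 and 11.9, for *Gphn* 7.52 and 8.03, and for *Gm19951* 0.682 and 0.641. Over all cells, the proportions of these 4 genes to *Gm42418* in humdG were 0.939 to 1.08 times those in humWT. Those of *Cdk8* and *AY036118* were 3.44 and 1.83 times. By class the 4 genes varied more, from 0.618 times for *Gm19951* in cartilage-like cells to 1.19 times for *Gphn* in muscle-like cells.

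**Figure D4:**
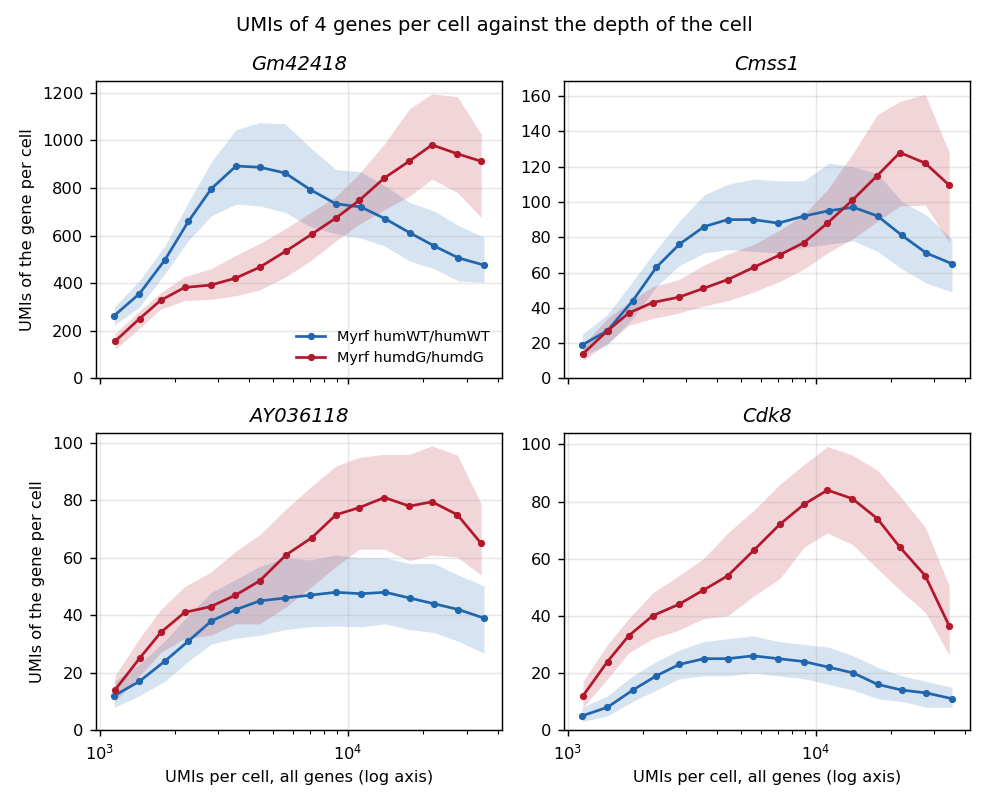
UMIs of 4 members per cell (vertical axis) against all UMIs of the cell (horizontal axis, log scale), as the median (line) and the 25th to 75th percentile (band) of cells in bins of depth, humWT in blue and humdG in red. From about 4000 UMIs on, humWT cells hold no more *Cdk8* or *Gm42418* UMIs as they get deeper, and the humdG line for *Cdk8* is above the humWT line at every depth.

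The *Cdk8* share of UMIs was higher in cells of 1000 to 4000 UMIs than in shallower or deeper ones. In humWT it was 0.290% under 1000 UMIs, 0.722% from 1000 to 2000 and 0.790% from 2000 to 4000, and in humdG it was 0.765%, 1.73% and 1.62%. Above 4000 UMIs the number of *Cdk8* UMIs per cell rose less than depth or not at all. In humWT, cells of 2000 to 4000 UMIs held a mean of 22.9 *Cdk8* UMIs, those of 4000 to 8000 held 26.2, those of 8000 to 16000 held 22.4 and those of 16000 or more held 15.6. Mean depth rose from 2898 to 25768 UMIs over the same bins. *Gm42418* held 781, 892, 728 and 601 UMIs per cell in these bins. In humdG the means for *Cdk8* were 44.4, 63.2, 80.4 and 64.5 UMIs, and *Gm42418* rose from 401 to 979.7 UMIs. The *Cdk8* share of UMIs fell from 0.790% in humWT cells of 2000 to 4000 UMIs to 0.0604% in those of 16000 or more, and from 1.62% to 0.248% in humdG.

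Compared at the same depth, *Cdk8* was higher in humdG in all 6 bins. These bins pool all classes, whose shares differed between the libraries, as for the largest cluster (21.8% of humWT and 42.7% of humdG cells). The parts of depth and class cannot be told apart in them. The log2 ratio was 1.40 under 1000 UMIs (49 humWT and 367 humdG cells), 1.26 from 1000 to 2000, 1.03 from 2000 to 4000, 1.17 from 4000 to 8000, 1.90 from 8000 to 16000 and 2.04 above. *AY036118* was also higher in each bin, from 0.27 to 0.74. *Gm42418* changed direction with depth. It was lower in humdG in cells under 8000 UMIs, at -0.57 to -0.88, and higher in deeper cells, at 0.13 from 8000 to 16000 UMIs and 0.69 above. *Cmss1*, *Gphn*, *Lars2* and *Gm19951* were lower in humdG in each bin under 16000 UMIs and higher above it, at 0.53, 0.52, 0.32 and 0.40. For *Gphn* under 1000 UMIs the interval held 0 (-0.14, interval -0.29 to 0.02).

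RPE-like cells showed the same form. In humWT the mean was 24.4 *Cdk8* UMIs per cell at 2000 to 4000 UMIs (273 cells), 24.99 at 4000 to 8000 (126 cells) and 18.5 at 8000 or more (142 cells). In humdG it was 51.9 (160 cells), 76.8 (58 cells) and 70.0 (73 cells). The log2 ratio was 1.22 in the first of these bins, 1.68 in the next and 1.82 in the deepest. In RPE-like cells of 8000 or more UMIs, a bin chosen after seeing the data, *Cdk8* was 0.0929% of UMIs in humWT and 0.329% in humdG, and *Gm42418* was 3.66% and 5.20%.

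**Figure D5:**
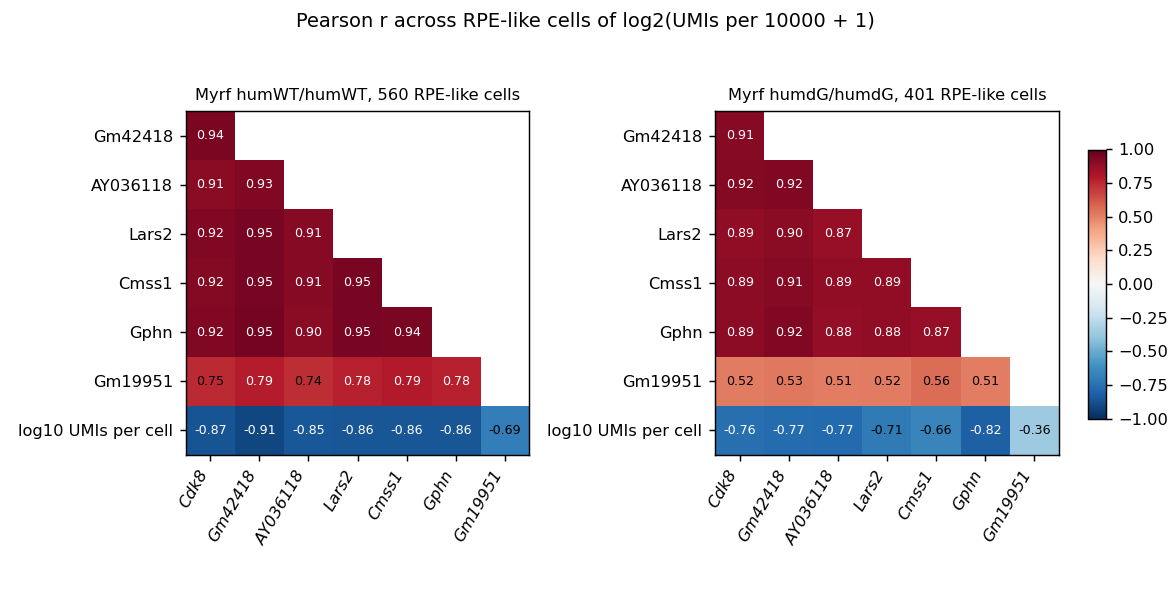
Pearson r across RPE-like cells between the members, and of each with the log10 UMIs of the cell (bottom row), on log2(UMIs per 10000 + 1), humWT left and humdG right. Red is positive and blue negative, and every pair of members is positive while every member falls with depth.

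Across single cells the 7 genes rose and fell together. Over all cells, on the scale log2(UMIs per 10000 UMIs + 1), r between *Cdk8* and *Gm42418* was 0.90 in humWT (16166 cells) and 0.85 in humdG (18173 cells). The 15 pairs without *Gm19951*, the member with the fewest UMIs, had a lowest r of 0.87 in humWT and 0.80 in humdG. Over all cells the share of every member fell with depth, *Gm42418* with r of -0.89 and -0.77 against log10 UMIs per cell and *Cdk8* with -0.77 and -0.62. Within the largest cluster, whose cells are shallow, r with depth was near 0 or positive, from -0.04 to 0.21 over the members in humWT (3530 cells) and from 0.04 to 0.26 in humdG (7766 cells). In RPE-like cells r between *Cdk8* and *Gm42418* was 0.94 (560 cells) and 0.91 (401 cells). In cells of 2000 to 6000 UMIs, where depth varies less, the median r of the 21 pairs was 0.60 in humWT (9000 cells) and 0.72 in humdG (5630 cells). Cells of a library share its depth and its preparation, and 2 shares of the same cell share a denominator, so these values describe the 2 libraries.

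Most other genes of high count had a lower r with *Cdk8* across cells. The members were chosen for rising and falling together, so this difference was set by the choice. A large share of the members in a cell also leaves less of its UMIs for other genes. The 103 genes with at least 1000 CPM that were not members had a median r with *Cdk8* of -0.28 in humWT and -0.18 in humdG, and of -0.09 and -0.0059 in cells of 2000 to 6000 UMIs. *Malat1*, an abundant non-coding RNA kept in the nucleus, had the lowest over all cells, -0.45 and -0.34. *Camk1d*, which encodes a calcium-dependent kinase and is named here after its values were seen, had the highest in humWT, 0.67, and was at 0.34 in humdG. It stood at 1549 CPM in humWT and 1189.7 CPM in humdG. The highest in humdG was *Hbb-bs*, an adult beta-globin also named after its values were seen, at 0.50, with 0.54 in humWT. The 6 other genes of the Mediator kinase module had r with *Cdk8* of -0.13 to -0.08 in humWT and -0.15 to -0.07 in humdG, although they code for its partners and paralogs. Their counts were sparse, which weakens any r of either sign.

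In the largest cluster the members summed took a larger share of UMIs than in any other cluster or class compared. It held 3530 humWT and 7766 humdG cells, with medians of 2303 and 1658 UMIs, and was left unnamed, since 3 muscle markers were raised in it but the single marker among its 10 leading genes was *Sncg*, of retinal ganglion cells. All 7 members were among its 10 leading genes, beside *Sncg*, *Ina* and *Crmp1*, genes of neurons that are named here after their values were seen. No member was among the variable genes from which the clusters were built. Their UMIs did count in the total by which each cell was scaled, so the clusters are not independent of them. *Cdk8* took 8199 CPM there in humWT and 16751 CPM in humdG, and *Gm42418* took 271653 and 162854 CPM. The members together took 35.1% of UMIs in humWT and 24.0% in humdG. The log2 ratio of *Cdk8* was 1.03 in this cluster and 1.44 in all cells outside it. In the remaining 5 unnamed clusters it ran from -0.13 to 2.94, and the highest level of *Cdk8* in humdG, 18274 CPM, was in a cluster among these that was led by *Acta2*, *Col12a1* and *Tagln*, genes of contractile and connective tissue cells (6443 CPM in humWT).

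Red blood cells lose their nucleus as they mature. Whether the red blood cell-like cells here had lost it, and how many genes they still transcribed, was not tested. With every cell thinned to 1000 UMIs, a *Cdk8* UMI was found in 90.2% of RPE-like and 98.8% of red blood cell-like cells in humWT, and in 98.2% and 99.6% in humdG. The medians were 6 *Cdk8* UMIs in both classes in humWT, and 16 and 12 UMIs in humdG. Median depths before thinning were 3865.5 and 4016.5 UMIs in humWT and 2585 and 4164.5 UMIs in humdG, and 0 RPE-like and 7 red blood cell-like humWT cells and 2 and 7 humdG cells were left out as too shallow. Without thinning the shares in RPE-like cells were 99.8% and 100%. After thinning, the share was lower in RPE-like than in red blood cell-like cells in both libraries, and by more in humWT. In humdG both shares were close to their upper limit. Only barcodes called as cells were used, and the part of free RNA in these UMIs was not tested.

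The kinase module holds the kinases *Cdk8* and *Cdk19*, cyclin C (*Ccnc*) and the scaffold proteins *Med12*, *Med12l*, *Med13* and *Med13l*. None of the 6 other than *Cdk8* reached 2-fold in either direction over all cells, where 4.53% of all genes were at least 2 times higher and 6.35% at most 0.5 times. Of the 6, 4 were higher and 2 lower, with a median log2 ratio of 0.18. *Cdk19*, the paralog of *Cdk8*, was at 49.6 CPM in humWT and 57.5 CPM in humdG (0.21, interval 0.16 to 0.26). *Ccnc* was at 28.3 and 37.2 CPM (0.40), *Med12* at 22.0 and 21.5 CPM (-0.03) and *Med13* at 88.1 and 97.1 CPM (0.14). *Med12l* was at 34.4 and 48.3 CPM (0.49) and *Med13l* at 79.9 and 72.9 CPM (-0.13). In humWT *Cdk8* had 345581 UMIs and the module member next to it, *Med13*, 10566, values that are not corrected for gene length. In RPE-like cells none of the 6 reached 2-fold, 5 were lower in humdG, and the median was -0.23 beside -0.06 over all genes. Of all genes compared there, 2.52% were at least 2 times higher and 5.88% at most 0.5 times.

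Of 26 core Mediator genes, none reached 2-fold over all cells, 21 were higher and 5 lower in humdG, and the median was 0.22, beside 0.05 over all genes and the same 4.53% and 6.35% past 2-fold. The mitochondrial aminoacyl-tRNA synthetases, the family of *Lars2*, had 0 of 16 other members past 2-fold and a median of 0.13, with *Fars2* at 62.7 and 61.9 CPM and *Iars2* at 36.0 and 33.4 CPM. *Lars2* itself was at 3899 CPM in humWT, a count that is not corrected for gene length. Of 44 genes of ribosomal RNA synthesis and processing other than *Cmss1*, none passed 2-fold, 41 were higher in humdG and 3 lower, and the median was 0.19, beside -0.19 for *Cmss1*. *Npm1* and *Ncl*, abundant nucleolar proteins, were at 0.18 and 0.23. Of the 9 genes listed with *Gphn*, its synaptic partners and the enzymes of the molybdenum cofactor, the median was 0.02, with *Mocs2* at 52.7 and 54.2 CPM. In RPE-like cells 2.52% of 12635 genes were at least 2 times higher in humdG and 5.88% at most 0.5 times. There, 0 of 25 core Mediator genes and 0 of 44 genes of ribosomal RNA synthesis and processing passed 2-fold. Their medians were 0.00 and 0.10. Of 15 mitochondrial aminoacyl-tRNA synthetases other than *Lars2*, 12 were lower in humdG there, the median was -0.28, and 1, *Pars2*, named after its values were seen, was past 2-fold on 10 and 12 UMIs (1.08, interval -0.26 to 2.45).

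Other non-coding and repeat-derived genes were mostly lower in humdG. Of 8 measured, 7 were lower in humdG, 2 of them at most 0.5 times, and 1 was at least 2 times higher, with a median of -0.77. Over all 21026 genes compared, 4.53% were at least 2 times higher and 6.35% at most 0.5 times. These shares stand beside each 2-fold count of this paragraph. *Gm26917* was at 207 CPM in humWT and 141 CPM in humdG (-0.55), and *Gm10801* at 23.1 and 9.65 CPM (-1.26). Named after their values were seen, *Gm21738* was the other that fell past 2-fold (-1.24), and the gene that rose was *Rmrp*, the RNA of an enzyme that cuts ribosomal RNA precursors, at 1.78 and 7.28 CPM (2.03). Of 11 nuclear long non-coding RNAs, 5 were higher and 6 lower, with a median of -0.62, and *Xist* (1.13) and *Miat* (1.26), the latter named after its value was seen, were past 2-fold. The sex of the pooled embryos was not examined here, and its part in these ratios was not tested. *Malat1* was at 11512 and 12816 CPM (0.15) and *Meg3* at 931 and 504 CPM (-0.89). The 13 mitochondrially encoded genes took 4.03% of UMIs in humWT and 3.24% in humdG, with 12 of 13 lower and a median of -0.30. Of 12 genes that respond to tissue dissociation, 11 were lower in humdG, with a median of -0.34, and 1, *Egr1*, named after its value was seen, was past 2-fold (-1.75). Within classes this list was evenly split, with 5 higher and 5 lower in retinal progenitor-like cells (median 0.02), 6 and 5 in the largest cluster (0.00) and 2 and 3 in RPE-like cells (-0.10). The part of these differences in the *Cdk8* ratio was not tested.

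The genes whose log2 CPM was most like that of *Cdk8* were sought over 40 points, each a class or cluster in 1 library. Among members *AY036118* came first, with r of 0.91, the second place after *Cdk8* itself among 12468 genes. The others ranked from place 6 (*Cmss1*, 0.69) to place 18 (*Gm19951*, 0.60). These places follow in part from the choice of the members, which were picked for rising and falling together in these data. Of the 10 genes outside the members with the highest r, 8 code for histones, and whether that is more than among all genes was not tested. *Hist1h4d* (r of 0.71) was at 416 CPM in humWT and 1495 CPM in humdG, a log2 ratio of 1.85, and *Hist1h1e* (0.66) was at 619 and 1748 CPM, a ratio of 1.50. *Hist1h4h* (0.72) was at 143 and 505 CPM (1.82) and *Hist1h3e* (0.65) at 132 and 580.2 CPM (2.14). *Ccnb1ip1* had the highest r, 0.73, at 17.3 and 37.0 CPM, and *Sncg*, a synuclein of neurons, was at 0.61. The 40 points come from 2 libraries, so the difference between libraries enters every r, and members of a class share its cells.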

How the data were processed

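Single-cell RNA-seq of E17.5 mouse eye cups was analysed from the deposited counts of UMIs per gene and cell, which the authors made with Cell Ranger 7.1.0 on mm10 (per the file headers and the labels); Seurat 4.1.1 is also in the submitters' processing notes, and intron counting is not given in the sources used here. The members and the gene lists were chosen with earlier results of these data known. Barcodes were kept above 500 genes and below a mitochondrial share of 15%, and the 5% with the highest Scrublet scores (scanpy 1.11.5) were removed, since its own threshold called 1 and 0 cells. Libraries were integrated with Seurat 5.3.0 (2000 variable genes without the members, 20 dimensions, resolution 0.5). A cluster was named when at least 3 of a class's markers were raised at least 2 times and found in at least 10% of its cells, with 1 among its 20 leading genes, unless markers of another class alone were among its 10 leading genes; melanocyte-like cells were named but not compared. UMIs were summed per library and class and given as CPM, with exact Poisson and conditional binomial intervals (95%). Genes needed 20 UMIs to be compared. Named genes were the members, the kinase module, up to 4 genes per list by UMIs and the 10 most like *Cdk8* (10 CPM added, 1000 UMIs). Transcripts (141767, GENCODE M21) were compared by blastn 2.17.0+ (E up to 1e-05). In simulated RPE-like counts of 11685 genes, intervals held the true ratio for 98% of genes set to 0.5 times, 96.1% unchanged and 95% set to 2 times. These counts were drawn as Poisson, the model of the intervals, so they check the calculation and not the spread between cells, embryos or libraries. A result of the list kept with *Gphn* is not reported here.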

Additional observations from a re-analysis of the deposited data

Results flagged for a closer look

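In summed counts the ratio between the genotypes went in opposite directions in different classes for every member, and none of these differences was tested, since each class is 1 library per genotype. *Cdk8* had log2 ratios, humdG over humWT, of 2.00 in neural crest and glia-like cells and -0.39 in cartilage-like cells, and was above 0 in 12 classes. *Gm42418* was at 0.52 and -1.71, *Cmss1* at 0.35 and -2.15 and *Gm19951* at 0.45 and -2.40 in the same 2 classes. *AY036118* was at 0.94 in surface epithelium-like cells and -1.14 in cartilage-like cells, *Lars2* at 0.26 and -2.03 and *Gphn* at 0.41 and -1.86. The low end was in cartilage-like cells for all 7 genes, in sums over cells that had means of 3489 UMIs in humWT and 12767 in humdG. With each cell thinned to 1000 UMIs the cartilage-like medians were 5 and 12 UMIs for *Cdk8* and 9 and 14 for *AY036118*, higher in humdG, so for these 2 genes the opposite direction was not seen in the thinned medians.

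Barcodes that the filters removed were left out of the main comparisons, and *Cdk8* was higher in humdG in each kind. Its log2 ratio was 0.78 in barcodes with 500 genes or fewer (136 in humWT and 178 in humdG), from 4081 to 7016 CPM. It was 1.06 in barcodes with 15% mitochondrial UMIs or more (268 and 258), from 4469.7 to 9345 CPM. In the barcodes with the highest doublet scores (851 and 956) it was 1.97, from 2323 to 9099.7 CPM.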

How the results depend on the processing

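*Cdk8* was higher in humdG over all cells under each of 9 alternatives and in RPE-like cells under each of 12, and *Gm42418* was lower over all cells under each of 9. Over all cells the log2 ratios of *Cdk8* and *Gm42418* were 1.50 and -0.28 with no doublet removal, 1.44 and -0.34 without the largest unnamed cluster, 1.45 and -0.33 over UMIs of genes other than the members, 1.44 and -0.34 over those of nuclear genes other than the members, 1.06 and -0.88 in cells of 2000 to 6000 UMIs, 1.30 and -0.69 as the ratio of median shares, and 1.28 and -0.56 after thinning to 1000 UMIs. With mitochondrial UMIs under 10% *Gm42418* was at -0.30. For *Cdk8* in RPE-like cells the ratio was 1.53 with mitochondrial UMIs under 10%, 1.30 in cells of 2000 to 6000 UMIs, 1.45 after thinning, 1.80 with the libraries merged without integration, 1.22 for 2469 and 978 cells taken by 3 of 7 RPE markers, and, in alternatives chosen after seeing the data, 1.82 in RPE-like cells of at least 8000 UMIs and 1.61 in the larger RPE-like cluster alone. Letting the members be variable genes changed no cell, since 0 of 7 was among the 2000 in either library.

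In RPE-like cells the small negative ratios of the other members turned with the choice of cells, and the cause was not tested. With the libraries merged, *Gm42418* was at 0.11, *Lars2* at 0.13 and *Gphn* at 0.17. In cells of at least 8000 UMIs they were at 0.51, 0.17 and 0.20, and *Gm19951* was at 0.0069. *Cmss1*, whose interval held 0, was above 0 in 6 alternatives and below in 6. No paired analysis was possible because each genotype is 1 library. Depth sets the precision: RPE-like *Gm19951* rested on 2951 and 1348 UMIs.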
